A study of Bos taurus with 4 samples.

Results

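Solute carriers are membrane proteins that move amino acids, sugars, nucleotides, metals and inorganic ions across the plasma membrane and the membranes of organelles, and their mouse gene symbols begin with Slc and a family number. Each family shares sequence and usually a kind of substrate: the Slc25 family exchanges metabolites across the inner mitochondrial membrane, the Slc2 family lets hexoses through the plasma membrane, and the Slc35 family brings nucleotide sugars into the Golgi and the endoplasmic reticulum. In the chromaffin cells of the adrenal medulla, which release catecholamines, carriers supply amino acid precursors, fuel and vitamin C, and move inorganic ions. The clones described here carry a single gene symbol that begins with Slc and a number in the platform annotation. The norepinephrine and dopamine carriers of the plasma membrane (Slc6a2 and Slc6a3) and the vesicular monoamine carriers (Slc18a1 and Slc18a2) were left out. The choice used names alone and gave 391 clones of 223 genes, among 35960 library clones. A further 11 annotation entries with several symbols were not used, and 3 entries belonged to the monoamine carriers. Of the 223 mouse genes, 217 have a bovine gene of the same symbol in RefSeq.

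Bovine chromaffin cells were exposed to the neuropeptide PACAP (pituitary adenylate cyclase-activating polypeptide), which acts through cyclic AMP, at 100 ng/ml for 6 h at 37 C, and control cells of the same repeat served as the reference. Total RNA of PACAP cells was labelled with Cy5 and total RNA of control cells with Cy3, and each of 4 biological repeats was hybridised to 1 array of mouse cDNA clones from the NIA and BMAP libraries. The dyes were not swapped on any array, so a dye preference of a clone is part of its ratio. The labels give no genotype, age or number of animals and do not say whether repeats came from separate animals, so p-values measure the spread between these 4 arrays. The tissue entry of the labels reads brain, and the cell type entry reads chromaffin cells. Of 10 chromaffin marker genes, 7 could be tested, and their spots had a median brightness percentile of 98.6 (range 5.31 to 99.7). The other 3, Dbh, Pnmt and Cyb561, could not be tested. Among fibroblast markers 6 of 7 were tested, with a median percentile of 96.9. For adrenal cortex 8 of 11 were tested, with a median of 52.1. These are bulk samples, so fewer cells of a type and less RNA per cell cannot be told apart.

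A log2 ratio below is log2 of PACAP (Cy5) over control (Cy3) after intensity-dependent (loess) normalisation within the array, so a positive value means higher in PACAP cells. Brightness is the mean of both channels' log2 intensity, given as its percentile among all clones on that array. It depends on how well a mouse clone binds the bovine transcript as well as on the amount of RNA, so percentiles describe spots and do not rank genes by expression. Intensities are quoted before normalisation and are not comparable between dyes. Over the library spots, the median intensity was 415.6, 240.6, 102.8 and 260.9 in the PACAP channel of repeats 1 to 4, against 311.4, 208.3, 130.8 and 579.3 in the control channel. Repeat 4 stood apart. Its log2 ratios over all clones had a Pearson r of -0.02, -0.13 and -0.01 with repeats 1, 2 and 3, and the other 3 pairs had r between 0.232 and 0.385. Over the Slc clones the pairs with repeat 4 had r of 0.09, -0.19 and 0.01, and the others 0.182 to 0.339. Means without repeat 4 are therefore given beside the 25 carrier genes of the plot of named genes, except Slc7a5, Slc26a11 and Slc22a28, which repeat 4 did not measure. These correlations run across clones of the same arrays, which are not independent replicates.

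No Slc clone differed between PACAP and control cells beyond the spread between arrays after adjustment over the library. Clones entered the fit with a signal over 2 background SD in either channel on 3 or 4 arrays, which held for 388 of the 391 clones and left every one of the 223 genes with a tested clone. The untested clones belong to Slc4a4, to Slc17a7 and to Slc66a1. By limma with Benjamini-Hochberg adjustment, 0 of 388 clones reached an adjusted p under 0.05, and the lowest was 0.453. The background was the same: 0% of 35110 library clones were called. At an unadjusted p under 0.05, 33 Slc clones (8.51%) stood out, against 10.4% of all clones. Of these, 11 had a higher level in PACAP cells (2.84%, against 3.92% of all clones) and 22 a lower one (5.67%, against 6.46%). In this setting both shares lay under those of the library, and so the counts give no result about the carriers as a group. Without repeat 1 they were 7 higher and 16 lower of 375 clones (1.87 and 4.27%, against 3.2 and 4.47% of all clones). Without repeat 2 they were 8 and 12 of 373 (2.14 and 3.22%, against 2.77 and 3.29%). Without repeat 3 they were 1 and 12 of 372 (0.269 and 3.23%, against 2.08 and 2.76%), the lower share then above that of the library. Without repeat 4 they were 11 and 31 of 384 (2.86 and 8.07%, against 4.91 and 9.5%). The authors' deposited log2 ratios, with each array's median subtracted, were also used in place of the scanner intensities. The split at an unadjusted p was then 6 higher and 40 lower of 388 (1.55 and 10.3%, against 1.24 and 11.9% of all clones). With median centring it was 12 and 34 (3.09 and 8.76%, against 7.68 and 9.69%), and with trend and robust moderation 5 and 0 (1.29 and 0%, against 2.59 and 0.00854%). With the deposited ratios 3 clones passed the adjusted threshold, where 1.06% of all clones did. These were the clones of Slc43a3 and Slc22a28 described below and a Slc30a9 clone with a spot of 26 pixels.

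The carriers' log2 ratios were centred near those of the library. Their median was -0.04, with quartiles of -0.26 and 0.25, against a median of -0.01 and quartiles of -0.32 and 0.26 over all clones. On repeats 1 to 4 the median over the Slc clones was -0.02, -0.02, 0.01 and -0.03. Of 372 clones measured on all 4 arrays, 35 (9.41%) had a positive log2 ratio on every array, where 10.1% of all clones did. A negative ratio on every array was found for 37 (9.95%), where 8.71% of all clones did. In control cells, 121 of the 388 clones (31.2%) exceeded background on all 4 arrays in Cy3, against 31.3% of all clones, so for most carriers the control level was under that limit on at least 1 array.

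By substrate the clones fell into 11 groups, named after the symbol prefix. The largest were the ion carriers (72 clones of 36 genes), the mitochondrial Slc25 carriers (64 of 37), the amino acid carriers (51 of 30), the transition metal carriers (47 of 22), the Slc35 family (34 of 23) and the glucose and sugar carriers (27 of 15). The remainder were 21 clones for neurotransmitter and vesicular carriers, 17 for organic ions, 11 for monocarboxylates, 6 for nucleosides and 41 for other families. By the prefix rule the ion carriers also hold 6 clones of 3 genes whose symbols match but whose proteins are adaptors and no carriers (Slc4a1ap, Slc9a3r1 and Slc9a3r2). Without them the median log2 ratio of the ion carriers was -0.13, where it was -0.09 with them.

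**Figure D1:**
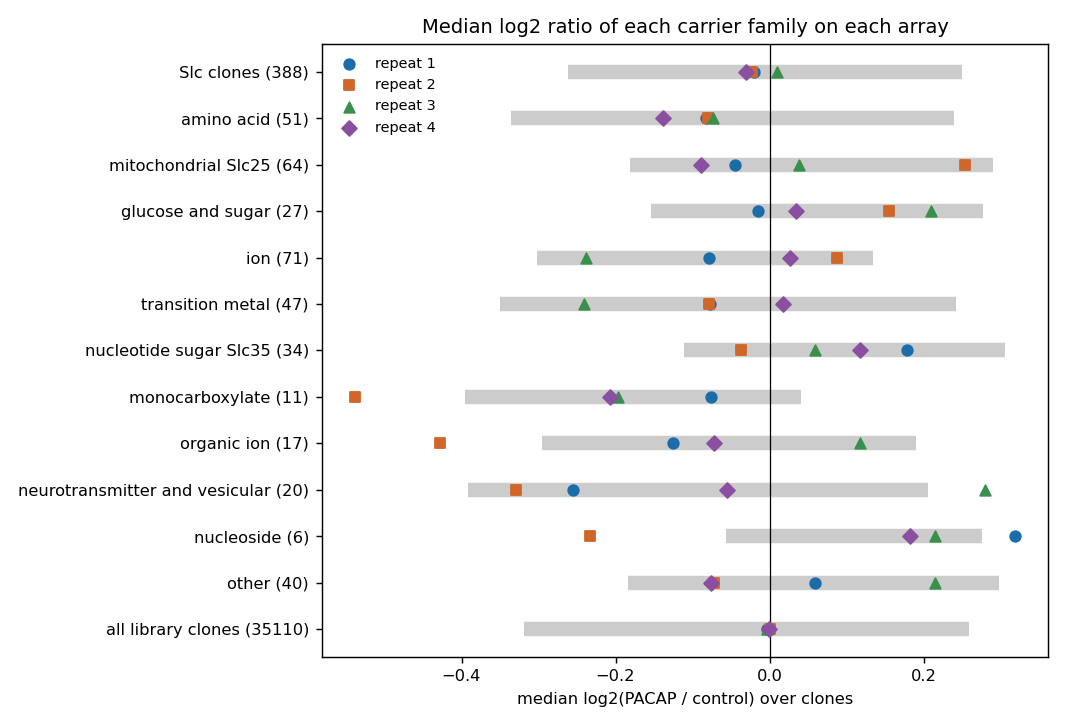
Median log2(PACAP / control) of each carrier group on each of the 4 arrays, with the number of tested clones in brackets. Markers are the 4 repeats, and the grey bar spans the quartiles of the clones' mean log2 ratios. The amino acid and monocarboxylate carriers lay below 0 on all 4 arrays, the Slc25 and ion carriers on both sides of it, and all library clones at 0.

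The amino acid carriers, which hold glutamate carriers, the heteromeric exchangers of Slc3 and Slc7 and the sodium-coupled neutral carriers of Slc38, had a median log2 ratio of -0.08, -0.08, -0.07 and -0.14 on repeats 1 to 4. All 4 medians were negative, and the distance from 0 was small beside the quartiles of the clones (-0.34 and 0.24). Of the 51 clones, 20 had a positive mean and 31 a negative one. The monocarboxylate carriers, which move lactate and pyruvate, had medians of -0.08, -0.54, -0.20 and -0.21, but over 11 clones only. The 27 glucose and sugar clones had medians of -0.02, 0.15, 0.21 and 0.03, with 17 clones positive and 10 negative. Within them the facilitative Slc2 carriers (13 clones of 7 genes) had medians of 0.11, 0.15, 0.21 and 0.12, positive on each array. None of these medians was tested, and the clones of a gene share their transcript.

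The mitochondrial Slc25 carriers lay on either side of 0 between arrays, with medians of -0.05, 0.25, 0.04 and -0.09. Their clones were split evenly, with 33 positive and 31 negative. The ion carriers had medians of -0.08, 0.09, -0.24 and 0.03, and the bicarbonate carriers of Slc4 among them -0.03, 0.17, -0.49 and 0.00. The median of the ion clones' means, -0.09 over all arrays, was 0.034 without repeat 3. The transition metal carriers, chiefly zinc carriers of Slc30 and Slc39, had medians of -0.08, -0.08, -0.24 and 0.02. The Slc35 carriers had medians of 0.18, -0.04, 0.06 and 0.12. In each of these groups the medians of the 4 arrays lay on both sides of 0. The neurotransmitter and vesicular carriers spread most, with medians of -0.26, -0.33, 0.28 and -0.05. Of their 19 clones on 4 arrays, 5 were negative on every array and 0 positive, where the library shares were 8.71 and 10.1%. These 5 include 2 or more clones of 1 gene, Slc6a8. One-sided counts also occurred the other way. The glucose and sugar group had 5 positive and 0 negative of 26 clones, and Slc35 had 5 and 0 of 34. None of these counts was tested.

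The groups differed in how brightly their spots hybridised, and overlapped widely. The transition metal carriers had median percentiles of 62.8, 67.8, 64.8 and 58.0 on repeats 1 to 4. The Slc25 carriers had 57.1, 50.9, 57.6 and 62.7, and the glucose and sugar carriers 58.3, 48.0, 41.8 and 59.6. The ion carriers had 46.1, 48.2, 47.7 and 48.7, and the amino acid carriers 55.4, 41.3, 39.7 and 44.9. Averaged over the arrays, the order from brightest was nucleoside (67.7), transition metal (64.1), organic ion (60.9), Slc25 (56.0), glucose and sugar (52.8), Slc35 (52.0), monocarboxylate (50.8), other (46.6), amino acid (45.0), ion (44.7) and neurotransmitter and vesicular carriers (42.5). The quartiles of neighbouring groups overlapped throughout this order; those of the transition metal carriers reached from 37.1 to 78.5, and the ion carriers' upper quartile was 66.4. Inside the amino acid group the 14 Slc7 clones were dim, with a median percentile of 24.5, and the 17 Slc38 clones had 53.4. The zinc carriers of Slc39 were brighter, at 67.2, than those of Slc30, at 47.4.

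**Figure D2:**
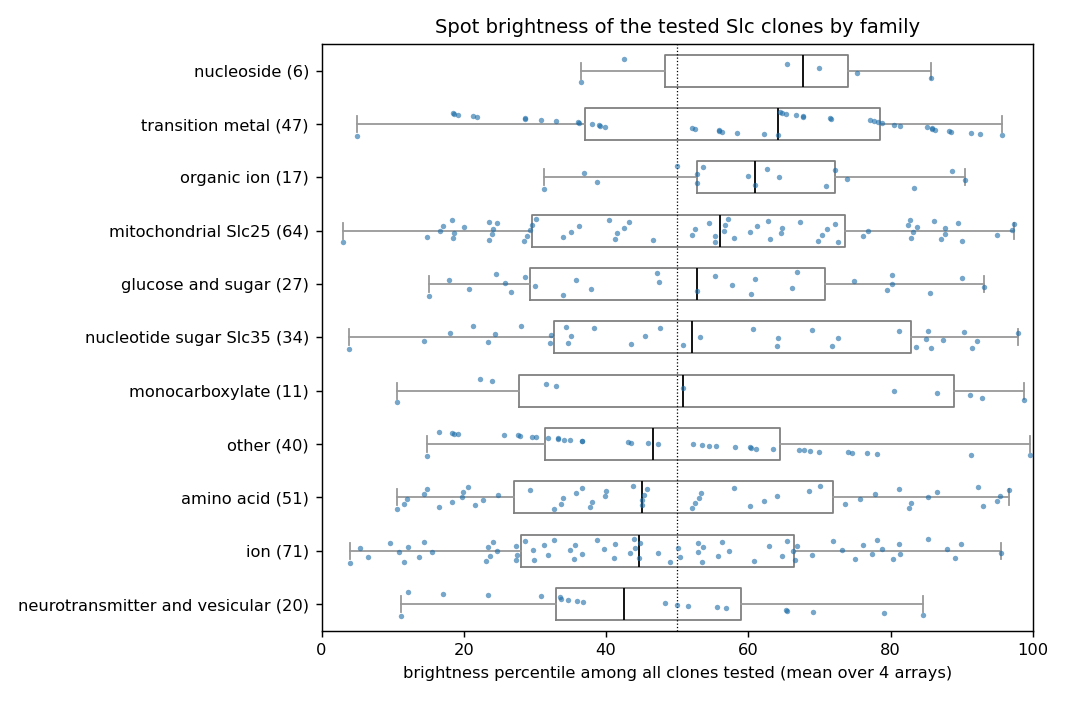
Brightness percentile of each tested Slc clone (points), averaged over the 4 arrays, with box plots by carrier group (median, quartiles, whiskers) and the number of clones in brackets. The groups run from a median of 67.7 for nucleoside carriers to 42.5 for neurotransmitter and vesicular carriers, and the boxes of neighbouring groups overlap.

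The brightness of a spot went with the precision of its ratio. The 87 Slc clones above the 75th percentile had a median SD between arrays of 0.39 log2 units, against 0.53 for 120 clones between percentiles 50 and 75, 0.67 for 112 clones between 25 and 50, and 0.66 for 69 clones below 25. Above the 75th percentile 0 clones had a positive ratio at an unadjusted p under 0.05 and 3 a negative one. The 11 positive clones at that level had a median spot area of 110.5 pixels, none was under 60 pixels, and in none did control Cy3 exceed background on all 4 arrays. The 22 negative clones had a median area of 73 pixels, and 10 of them were under 60 pixels, against 26 of all 388 clones. No library share is given beside these counts by brightness, Cy3 and area, so they give no result about the carriers as a group. With spots under 60 pixels left out, 12 of 354 Slc clones were positive and 19 negative at that level (3.39 and 5.37%, against 5 and 5.95% of all clones). Among clones with both channels over background on all 4 arrays, 3 of 120 were positive and 12 negative (2.5 and 10%, against 5.54 and 10.6%).

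**Figure D3:**
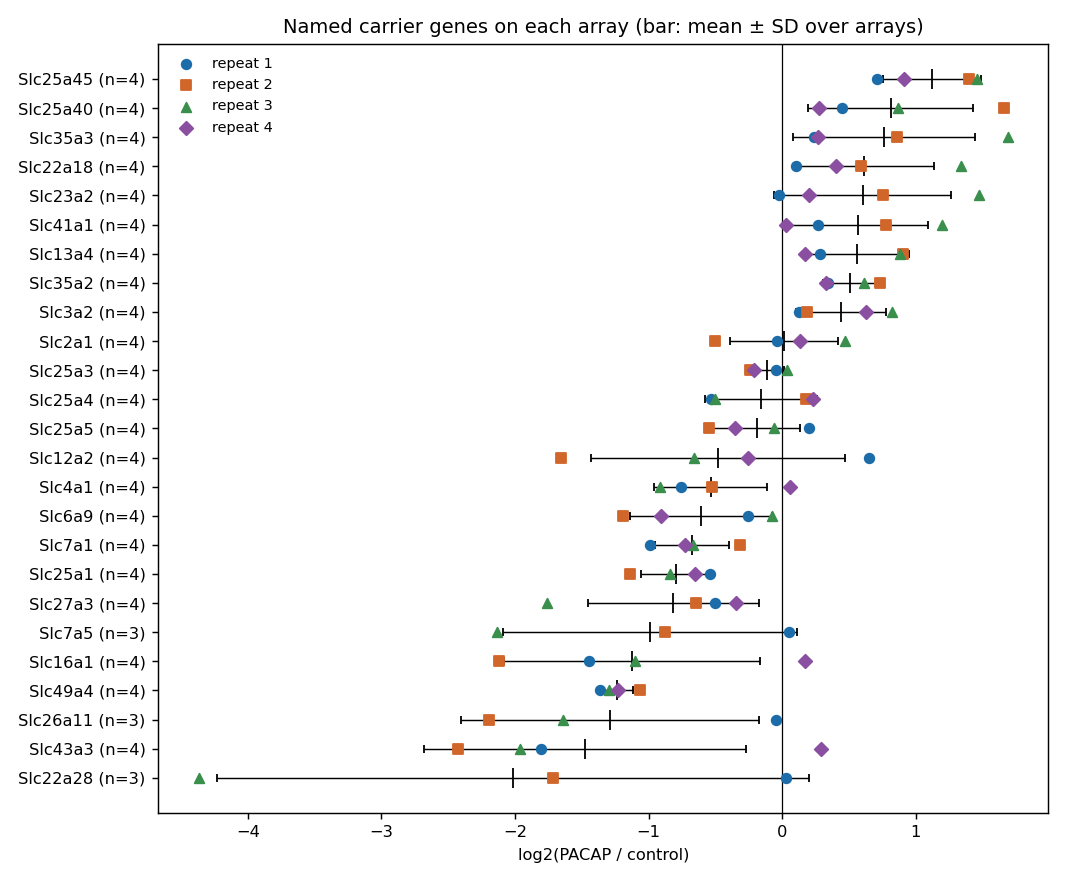
Log2(PACAP / control) of the 25 named carrier genes on each array, 1 clone a gene, with the mean (tick) ± SD over n arrays (bar). Slc49a4 lay between -1.36 and -1.07 on all 4 arrays, and Slc25a45 between 0.71 and 1.46, while Slc43a3 and Slc16a1 were negative on repeats 1 to 3 and positive on repeat 4.

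Each gene below is represented by its brightest tested clone. Slc49a4, a lysosomal membrane carrier, had the smallest p of the 223 genes. Its spot gave 1255, 447.6, 118.9 and 229.3 in PACAP RNA on repeats 1 to 4, against 1625, 467.8, 262.6 and 1233 in control RNA, and control Cy3 exceeded background on all 4 arrays. The log2 ratios were -1.36, -1.07, -1.30 and -1.23. All 4 arrays were lower in PACAP cells, with a mean of -1.24 ± 0.13 (SD, n = 4), that is 0.423 of the control level. The unadjusted limma p was 0.00065 and the adjusted p 0.453. Without repeat 4 the mean was -1.24, and over the 15 settings tried it ran from -1.32 to -0.99. The other Slc49a4 clone, of similar brightness, had a mean of -0.07 ± 0.65, with 0.38, -0.97, 0.45 and -0.13 on the 4 arrays, on both sides of 0.

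Slc25a45, a mitochondrial carrier of the Slc25 family, had the smallest p among genes with a positive ratio. Its spot gave 797.7, 356.8, 119.8 and 506.6 in PACAP RNA, against 314.6, 117.4, 60.7 and 617.0 in control RNA, and control Cy3 exceeded background on 2 arrays. The log2 ratios were 0.71, 1.40, 1.46 and 0.91. All 4 arrays were higher in PACAP cells, with a mean of 1.12 ± 0.37 (SD, n = 4), a 2.17-fold difference. The unadjusted limma p was 0.0022 and the adjusted p 0.453. Without repeat 4 the mean was 1.19. No other clone of Slc25a45 was tested.

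Among the remaining Slc25 carriers, Slc25a40, which imports glutathione into mitochondria, had log2 ratios of 0.44, 1.66, 0.87 and 0.27, a mean of 0.81 ± 0.62 and 0.99 without repeat 4. All 4 arrays were higher in PACAP cells, with control Cy3 over background on 3, and the adjusted limma p was 0.453. Slc25a1, the citrate carrier that supplies acetyl units to the cytosol, had log2 ratios of -0.54, -1.14, -0.84 and -0.65 at percentile 83.8, a mean of -0.79 ± 0.26 and -0.84 without repeat 4. All 4 arrays were lower in PACAP cells with the same adjusted p, while the other Slc25a1 clone, at percentile 76.8, had 1.10, 0.00, -0.49 and -0.39. Over the settings the first clone ran from -0.88 to -0.01.

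The carriers that mitochondria need in bulk gave bright spots, with ratios near 0 after loess normalisation. Slc25a4 and Slc25a5, which exchange ADP for ATP, lay at percentiles 97.3 and 97.0, and Slc25a3, the phosphate carrier, at 94.9. Slc25a4 had log2 ratios of -0.54, 0.18, -0.51 and 0.23, a mean of -0.16 ± 0.42 (-0.29 without repeat 4). Slc25a5 had 0.20, -0.55, -0.06 and -0.36, a mean of -0.19 ± 0.33 (-0.14 without repeat 4). Slc25a3 had -0.05, -0.25, 0.03 and -0.21, a mean of -0.12 ± 0.13 (-0.09 without repeat 4). None kept 1 sign on all arrays, and with median centring in place of loess all 3 means were positive, at 0.67, 0.66 and 0.59. With the deposited ratios they were negative, at -2.79, -2.60 and -0.48 for Slc25a4, Slc25a5 and Slc25a3.

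Among the amino acid carriers, Slc3a2, the heavy chain that carries Slc7 exchangers to the surface, lay at percentile 95.0 and had log2 ratios of 0.13, 0.18, 0.82 and 0.63. All 4 arrays were higher in PACAP cells, with a mean of 0.44 ± 0.34 (0.38 without repeat 4) and an adjusted limma p of 0.535. Its second clone had -0.08, 0.89, 0.75 and 0.02, a mean of 0.40 ± 0.50. Slc7a5, the large neutral amino acid carrier that pairs with Slc3a2, was dim at percentile 11.6 and measured on 3 arrays, with 0.05, -0.88 and -2.14. Its mean of -0.99 ± 1.10 lay within the spread. Slc7a1, the arginine and lysine carrier, had -0.99, -0.32, -0.67 and -0.73, a mean of -0.68 ± 0.27 (-0.66 without repeat 4). All 4 arrays were lower in PACAP cells, with control Cy3 over background on 2. The second Slc7a1 clone had a mean of -0.45 ± 0.99.

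Slc43a3, grouped with amino acid carriers by its family number although it is known to move purine bases, had log2 ratios of -1.80, -2.42, -1.96 and 0.29. Repeats 1 to 3 were low and repeat 4 was not, so that the mean of -1.47 ± 1.21 became -2.06 without repeat 4. Its spot covered a median of 22.5 pixels, against 110 over all Slc clones. Slc6a9, the glycine carrier GLYT1, was the brightest of the amino acid group at percentile 96.7. Its log2 ratios were -0.25, -1.19, -0.07 and -0.91, a mean of -0.61 ± 0.53 (-0.51 without repeat 4). With median centring that mean was 0.17.

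Slc2a1, the glucose carrier GLUT1 and the brightest of the sugar carriers at percentile 93.1, had log2 ratios of -0.04, -0.50, 0.47 and 0.13. The arrays lay on both sides of 0, and the mean of 0.01 ± 0.40 took the opposite sign without repeat 4 (-0.02) and under normexp, print-tip loess and the deposited ratios. A second clone of Slc2a1 had 0.22, 0.15, 0.67 and 0.15, a mean of 0.30 ± 0.25 with all 4 arrays higher in PACAP cells. Its control Cy3 exceeded background on 3 arrays. Of the ion carriers, Slc4a1, the chloride and bicarbonate exchanger known from red cells, was the brightest at percentile 95.5. Its log2 ratios were -0.76, -0.53, -0.91 and 0.06, a mean of -0.54 ± 0.43 and -0.73 without repeat 4; with median centring the mean was 0.19. Of the red cell markers, 3 of 4 were tested, Alas2 at percentile 93.3, Hbb-b1 at 56.8 and Slc4a1 itself, with mean log2 ratios between -0.54 and -0.16. Their part in the ratio of Slc4a1 was not tested. Slc12a2, the sodium, potassium and chloride cotransporter NKCC1, had 0.65, -1.65, -0.66 and -0.26, a mean of -0.48 ± 0.95 (-0.56 without repeat 4), and 0.32 with the deposited ratios.

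Slc41a1, a magnesium carrier, had log2 ratios of 0.27, 0.78, 1.20 and 0.03, a mean of 0.57 ± 0.52 (0.75 without repeat 4). Its second clone had 0.53, 0.25, 0.25 and 0.08, a mean of 0.28 ± 0.19. Both clones were higher in PACAP cells on all 4 arrays, and neither was called, with an adjusted limma p of 0.498 for the brighter. Control Cy3 exceeded background on 2 arrays for the brighter clone and on 1 for the second. Slc26a11, an anion exchanger measured on 3 arrays, had -0.04, -2.19 and -1.64, a mean of -1.29 ± 1.12. Slc16a1, the lactate carrier MCT1, had -1.45, -2.12, -1.10 and 0.17, a mean of -1.12 ± 0.96 (-1.55 without repeat 4). Repeat 4 again lay apart from the other 3, and the spot covered a median of 50 pixels.

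Of the Golgi carriers, Slc35a3, which brings in UDP-N-acetylglucosamine, had log2 ratios of 0.24, 0.86, 1.69 and 0.27, a mean of 0.76 ± 0.68 (0.93 without repeat 4). Slc35a2, which brings in UDP-galactose, had 0.34, 0.73, 0.61 and 0.32, a mean of 0.50 ± 0.20 (0.56 without repeat 4). Each was higher in PACAP cells on all 4 arrays, with adjusted limma p-values of 0.467 and 0.488. Slc13a4, a sulfate carrier with a bright spot at percentile 91.4, had 0.28, 0.90, 0.88 and 0.17, a mean of 0.56 ± 0.39 (0.69 without repeat 4). Slc23a2, the sodium-coupled vitamin C carrier, had -0.02, 0.75, 1.47 and 0.20, a mean of 0.60 ± 0.66 (0.73 without repeat 4). Its clone title names the family's member 1 as a nucleobase carrier, an older numbering. Slc22a18, an organic cation carrier, had 0.11, 0.59, 1.34 and 0.40, a mean of 0.61 ± 0.53 (0.68 without repeat 4). Control Cy3 exceeded background on 4 arrays for Slc13a4, on 3 for Slc35a3, Slc35a2 and Slc23a2, and on 2 for Slc22a18.

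The last genes with a negative mean lay at percentiles 33.2 and 31.2. Slc27a3, of the fatty acid carrier family, had log2 ratios of -0.50, -0.65, -1.76 and -0.35, a mean of -0.81 ± 0.64 (-0.97 without repeat 4), on a spot of 47 pixels. Slc22a28, of the organic anion carriers, had 0.03, -1.71 and -4.37 on 3 arrays, a mean of -2.02 ± 2.21, on a spot of 43 pixels. The 3 values span more than 4 log2 units, and repeat 1 lay at 0.

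Clones of 1 gene gave a check that the arrays hold within themselves. Of the 33 clones at an unadjusted p under 0.05, 23 had another tested clone of the same gene. In 11 of these 23 all other clones had the same sign, and in 12 at least 1 had the opposite sign. Of the 11 positive clones, 8 had such a partner, and in 2 another clone reached an unadjusted p under 0.05 in the same direction; both were clones of Slc38a1. Of the 22 negative clones, 15 had such a partner, and in 0 did another clone reach that level in the same direction. No library share is given beside these partner counts, so they give no result about the carriers as a group. Over all 103 carrier genes with 2 or more tested clones, 16 had positive means for every clone (15.5%) and 25 negative ones (24.3%). Of 5935 genes of the library, 1411 had positive means for every clone (23.8%) and 1032 negative ones (17.4%). Together the shares were 39.8% of the carrier genes and 41.2% of the library's. The difference in either direction was not tested. Among 61 carrier genes with exactly 2 tested clones, 55.7% had means of 1 sign, against 53.9% in the library.

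**Figure D4:**
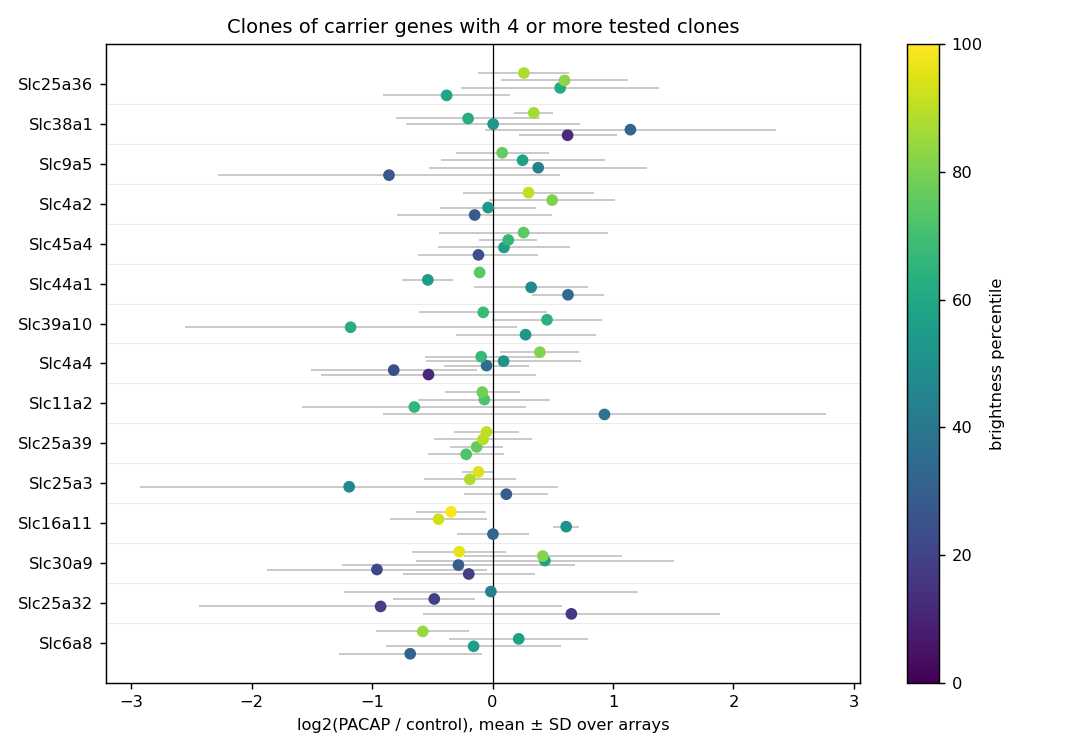
Mean log2(PACAP / control) ± SD over arrays for every tested clone of the 15 carrier genes with 4 or more tested clones, coloured by brightness percentile. In 14 of the 15 genes the clones lie on both sides of 0; all 4 clones of Slc25a39 lie between -0.22 and -0.05.

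Of 15 genes with 4 or more tested clones, 14 had clones on both sides of 0, a count with no library share beside it. The exception was Slc25a39, which like Slc25a40 imports glutathione into mitochondria, with 4 bright clones between -0.22 and -0.05. Slc38a1, a sodium-coupled glutamine carrier, ran from -0.20 to 1.14 over 5 clones. Of these, 3 lay above 0 on all 4 arrays, with means of 0.34 ± 0.16 at percentile 86.5, 1.14 ± 1.21 at percentile 32.6 and 0.62 ± 0.41 for the dimmest clone. Control Cy3 exceeded background on 4, 2 and 2 arrays for these clones, in that order. The other two had means of -0.20 and 0.01. Slc38a1 and Slc41a1 were the only carrier genes with 2 or more clones positive on every array. Slc16a11, Slc44a1 and Slc6a8 had 2 or more negative on every array, and these genes were singled out after their values were seen.

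Some genes had clones that held opposite signs on every array. For Slc16a11, a monocarboxylate carrier, clones at percentiles 98.8 and 92.9 had means of -0.34 ± 0.29 and -0.45 ± 0.40, and a clone at percentile 50.8 had 0.61 ± 0.11, with 0.50, 0.56, 0.65 and 0.74. Likewise Slc29a1, a nucleoside carrier, had -0.28 ± 0.39 for the brighter clone and 0.30 ± 0.24 for the dimmer. For Slc6a9 a dimmer clone had 0.25 ± 0.13, where the brightest had -0.61. In all 3 genes the brighter clone was the lower one, with control Cy3 over background on 4 arrays. For the higher, dimmer clones this held on 2 arrays for Slc16a11 and on 3 for Slc29a1 and Slc6a9. The ranges over clones were -0.65 to 0.93 for Slc11a2 (iron), -1.19 to 0.11 for Slc25a3, -0.93 to 0.65 for Slc25a32 (folate), and -0.38 to 0.60 for Slc25a36 (pyrimidine nucleotides). They were -0.96 to 0.43 over 6 clones of Slc30a9 and -1.18 to 0.45 for Slc39a10, both zinc carriers. Slc44a1, a choline carrier, ran from -0.54 to 0.63, Slc45a4 from -0.12 to 0.26, and Slc6a8, the creatine carrier, from -0.68 to 0.22. Among the ion carriers Slc4a2 ran from -0.15 to 0.49, Slc4a4 (sodium bicarbonate) from -0.82 to 0.39 over 6 clones and Slc9a5 (sodium and proton) from -0.86 to 0.38. Among these genes, the clone title goes against the symbol for 1 clone each of Slc44a1, Slc4a4, Slc25a32 and Slc25a39. Such titles occur in other carriers too. In the monocarboxylate group the Slc16a6 clone is titled brain protein I3 and the Slc16a9 clone a calcium channel.

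The brightest Slc clone of all was a clone of Slc14a1, a urea carrier, at percentile 99.6, with log2 ratios of 0.06, 0.19, 0.12 and -0.23 and a mean of 0.03 ± 0.18. Further clones of Slc14a1 lay at percentiles 78.0 and 14.8, so brightness depended on the clone as well as on the gene. In all, 25 Slc clones lay above the 90th percentile and 7 below the 10th. These percentiles are averages over the 4 arrays, with a median of 47.1 over all clones. No library share is given beside the counts, so they give no result about the carriers as a group.

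Proteins that work beside the Slc carriers, such as the ion pumps that build their gradients and the channels and carriers named otherwise, were read from a list of 39 genes. Of these 30 were tested and 0 passed the adjusted threshold by limma. At an unadjusted p under 0.05, 2 were higher in PACAP cells and 2 lower, where 3.92% of all clones were higher and 6.46% lower. Atp2a2, the calcium pump of the endoplasmic reticulum, had log2 ratios of 0.13, 0.73, 1.26 and 0.84, a mean of 0.74 ± 0.47 at percentile 98.3. Abca1, the cholesterol exporter, had 0.78, 0.03, 1.06 and 1.13, a mean of 0.75 ± 0.50. Both were higher in PACAP cells on every array. Mtch1, an outer mitochondrial membrane relative of the Slc25 carriers, had -0.87, -0.68, -0.90 and -0.75, a mean of -0.80 ± 0.11, the smallest SD among the 4. Slco1a4, an organic anion carrier, had a mean of -1.13 ± 1.05 on 3 arrays, and its clone title names another gene. The list had 20 genes with a positive mean and 10 with a negative one, with a median of 0.11. The median was -0.04 over the Slc clones and -0.01 over all clones. Each gene of the list enters by its brightest tested clone alone, at a median percentile of 77.6. The other medians and the shares run over every tested clone (median percentile 52.5 for Slc), so the 2 sides are not like for like.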

How the data were processed

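Spot intensity, its local background and the spot's area in pixels (unit other) are linear values by the authors, per the file headers. The image program is not stated. The deposited mean intensity already has the local background taken off, as checked from total intensity over pixels, so normexp was not the main setting. The deposited spot ratio is Cy5 over Cy3 divided by 1 calibration factor per array (1.69, 1.97, 1.53 and 0.432), found from the values. The log2 values of the authors' series table are PACAP over control. Their direction and scale were found from the scanner values. They match ratios of mean intensities with the local background taken off a second time and floored at 1, over the calibration factor. As deposited they are not centred, with medians of 4.67, 5.51, 4.25 and -0.38. Before the fit each array's median was subtracted from them.

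Its entries were joined to spots by plate position and kept within 0.1 log2 units (median over arrays), 35695 of 35873. Gene symbols come from the platform annotation of that table: 22477 of 36096 library spots had 1 symbol, 1111 several and 12508 none. Bovine symbols were matched in RefSeq (ARS-UCD2.0).

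Intensities were floored at 1, loess-normalised within arrays in limma 3.58.1 (R 4.3.3), and spots without area, blanks and other plates left out. Means of 4 arrays were tested against 0 with lmFit and eBayes, 2-sided, adjusted by Benjamini-Hochberg over 35110 clones. The number of arrays limits the precision. The fit was tried on 33266 simulated clones at an adjusted p under 0.05. It called 0 of 67 clones changed 2-fold, 33 of 67 changed 4-fold, 55 of 66 changed 8-fold and 1 of 33066 unchanged. Simulated ratios were normal and independent between arrays, with SDs drawn at random from the clones measured on 4 arrays. In the data, repeats 1 to 3 correlated, repeat 4 did not, and SD went with brightness. The simulated counts therefore do not give the rates of found or false calls in these data. Members and lists were chosen with earlier results of these data known. Genes named are the 8 of smallest p in each direction, the brightest of each of 4 groups, a list of 8 genes and those with 4 or more tested clones. The p was ranked over each gene's brightest tested clone alone. Dimmer clones of other genes were therefore passed over, among them Slc30a10 and Slc43a2 (lower, unadjusted limma p 0.0041 and 0.0042) and Slc12a7 (higher, 0.027). Tables were made with Python 3.11.15, pandas 2.3.3, numpy 2.4.6 and matplotlib 3.10.9. Settings tried as alternatives were the normalisation, background, filters, floor, moderation, source of values and each array left out.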

Additional observations from a re-analysis of the deposited data

Results flagged for a closer look

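Of 46 values examined over the 4 arrays, the median log2 ratio of the amino acid carriers on repeat 4 lay apart, at -0.138, where the other 3 repeats lay between -0.083 and -0.074. The gap was 0.861 of the whole range, above Dixon's 95% critical value for 4 arrays. Chance alone gives such a value in about 1 of 20 groups.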

How the results depend on the processing

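No paired analysis was possible because the 4 arrays form 1 group and each array already sets PACAP against the control of its own repeat. The deposited log2 ratios entered the fit with each array's median subtracted. The clones' means then had a median of -0.28 over all clones. Of the 14 alternatives, only these centred deposited ratios gave Slc clones past the adjusted threshold. These were 3, against 1.06% of all clones: Slc43a3 (-6.27), Slc22a28 (-6.17) and a Slc30a9 clone (-4.58), positive on repeat 4 where it was measured there. That table gave 6 higher and 40 lower at an unadjusted p under 0.05, a median over the Slc clones of -0.17, and group medians of -0.35 (amino acid), -0.21 (glucose and sugar), -0.21 (Slc25), -1.40 (monocarboxylate), 0.70 (nucleoside), 0.39 (Slc35), 0.24 (organic ion) and 0.0605 (transition metal), with Slc12a2 at 0.32 and Slc2a1 at -0.75. Median centring gave 34 lower clones, medians of -0.14 (amino acid), 0.23 (monocarboxylate), 0.26 (Slc35), -0.10 (other) and 0.068 (transition metal), and reversed Slc25a3 (0.59), Slc25a4 (0.67), Slc25a5 (0.66), Slc4a1 (0.19) and Slc6a9 (0.17). With both channels over background on all 4 arrays there were 3 higher and 12 lower clones, with medians of -0.12 (all Slc clones), -0.20 (amino acid) and -0.11 (other). Moderation with trend and robust settings gave 5 higher and 0 lower, against 2.59 and 0.00854% of all clones. Print-tip loess gave -0.068 for amino acid carriers, 0.0054 for Slc25a5 and -0.025 for Slc2a1, normexp gave -0.0061 for Slc2a1, scaling between arrays gave -0.023 over the Slc clones, and leaving out spots under 60 pixels gave 0.15 for Slc35. Further group medians took the opposite sign to the main setting. Median centring gave -0.0082 for glucose and sugar and 0.014 for organic ion carriers, and print-tip loess -0.025 for glucose and sugar. With both channels over background on all 4 arrays, Slc25 had -0.12 and Slc35 -0.047. Without spots under 60 pixels, Slc25 had -0.020 and neurotransmitter and vesicular carriers 0.062. The cause of these shifts was not tested.

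Leaving out each array in turn gave 1 to 11 higher and 12 to 31 lower clones, medians of -0.036 to -0.017 over the Slc clones, -0.094 to -0.055 for amino acid carriers and 0.030 to 0.14 for Slc35. The medians of 4 groups took the opposite sign without 1 array: ion (0.034 without repeat 3), neurotransmitter and vesicular (0.029 without repeat 1, 0.020 without repeat 2), Slc25 (-0.022 without repeat 2) and other (-0.00068 without repeat 1, -0.015 without repeat 4). Slc2a1 was negative without repeat 3 (-0.14) and without repeat 4 (-0.02). Of the 25 named genes, 18 kept their sign in every setting that tested them and 7 did not. Faint control signal limits these ratios: Cy3 exceeded background on all 4 arrays for 31.2% of the tested Slc clones.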
